A study of Solenopsis invicta with 32 samples.

Results

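Brains of overwintered fire ant gynes were compared with brains of spring-reared gynes. A gyne is a young winged queen that has not yet founded a colony. The members are the 16 brain libraries of a series of 32, chosen by their labels as brain: 8 overwintered and 8 spring-reared, with differences given as overwintered minus spring-reared throughout. All gynes of Solenopsis invicta in both groups were of the monogyne form, in which a colony has only 1 reproductive queen, and were SB/SB at the social supergene, so neither social form nor supergene genotype differs between the groups. Each colony gave 1 gyne, and each library was made by Smart-seq2, which amplifies polyadenylated transcripts of very small inputs, from 1.6 ng of total RNA of a single brain. Replicates are therefore separate animals from separate colonies. The labels give no ages, dates or weights, and all overwintered gynes carry one colony code prefix and all spring-reared gynes another, so what the prefix marks and the treatment cannot be told apart. The other 16 libraries are ovaries of the same gynes and were used here only for reference.

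Gynes of this species normally leave the nest on mating flights after building up body reserves, and a part of them, reared late in the year, stays in the nest over winter and flies afterwards. The insect brain senses nutritional state and, through its neurosecretory cells, steers the hormones that govern feeding, reserves and egg development. The study asked which genes are tied to plasticity in queen weight, and the brain comparison addresses the neural side of that question. The files identify genes only by number: 0 of 16314 identifiers matched the reference gene table, so genes are described by abundance, direction and behaviour across libraries, and 4 of them by identifier. For the same reason no sequence could be shown and brain cell markers could not be looked up. As a check of the organ label, the lowest Spearman correlation between any pair of brain libraries was 0.936 and the highest between a brain and an ovary was 0.826, over 13841 genes with any count.

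Counts assigned to genes ranged from 9612985 to 17032204 in overwintered and from 12409245 to 19290194 in spring-reared brains. Reads outside genes made up 12.8% ± 2.18 of reads in overwintered and 10.8% ± 0.541 in spring-reared brains (SD, n = 8; exact two-sided permutation p = 0.0183, adjusted p = 0.0308 over 16 library measures), and multimapping reads 8.59% ± 0.553 and 9.49% ± 0.947 (n = 8 each; exact permutation adjusted p = 0.0443). Genes abundant in ovary and at least 100-fold lower in brain, 65 in number, took at most 0.00812% of the counts of any brain library, with means of 0.00619% in overwintered and 0.00496% in spring-reared brains (n = 8 each; exact permutation adjusted p = 0.0308). The brain levels of these same libraries helped to choose the 65 genes, so their low share follows from the choice. It does not measure how much ovary tissue the brain samples held. All 3 group differences were near the threshold. Without spring-reared brains 4 and 7, reads outside genes (exact permutation adjusted p = 0.0874) and multimapping reads (0.0915) no longer passed, while the ovary genes did (0.0129). Leaving out 1 library ended the call on reads outside genes for spring-reared brain 3, 7 or 8 (0.0511 to 0.0577). It ended that on multimapping reads for overwintered brain 2, 3, 5, 6, 7 or 8 and spring-reared brain 3, 7 or 8 (0.0597 to 0.0965), and that on ovary genes for overwintered brain 1 or 5 and spring-reared brain 3, 6 or 8 (at most 0.0597). The part of these measures in the results below was not tested. Overwintered brain 1 and spring-reared brains 4 and 7 lay at the edge of their group in several measures. Of 40 groups of 8 values examined for an outlier with Dixon's critical value, 0 held one. That check sets 1 extreme value against its neighbour, so libraries that lie together at an edge can escape it. Spring-reared brains 4 and 7 lay so in genes with at least 10 counts at equal depth (8931 and 8930). The check therefore does not clear them. Several results are given with and without these libraries.

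A small share of brain genes differed between the groups, and which direction prevailed depended on how libraries were scaled. Of 9570 genes with enough counts to test, 517 passed an adjusted p of 0.05 in edgeR's quasi-likelihood test (5.4%). Overwintered brains were higher for 154 of them (1.61%) and lower for 363 (3.79%). This fit used TMM factors, which rescale each library so that most genes show no difference. The factors ranged from 0.950 to 1.12 in overwintered and from 0.917 to 0.998 in spring-reared brains, a shift that lies along the treatment. With library totals alone, a setting chosen after seeing the data, the split turned over to 413 higher and 193 lower genes, and the median log2 fold change of all genes moved up by 0.145, from 0.02 to 0.17. Limma voom, another tool, gave 261 higher and 389 lower with TMM factors. It gave 193 and 283 with quantile normalization, and 188 and 281 with cyclic loess normalization. Falls made up 59.8%, 59.5% and 59.9% of these calls, against 70.2% in edgeR with TMM factors. The split thus differed between the tools at the same TMM scaling. Counts alone do not give the total RNA per brain, so which scaling is nearer to the amounts per brain was not tested. In bulk tissue, fewer cells of a type and less RNA per cell cannot be told apart.

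**Figure D1:**
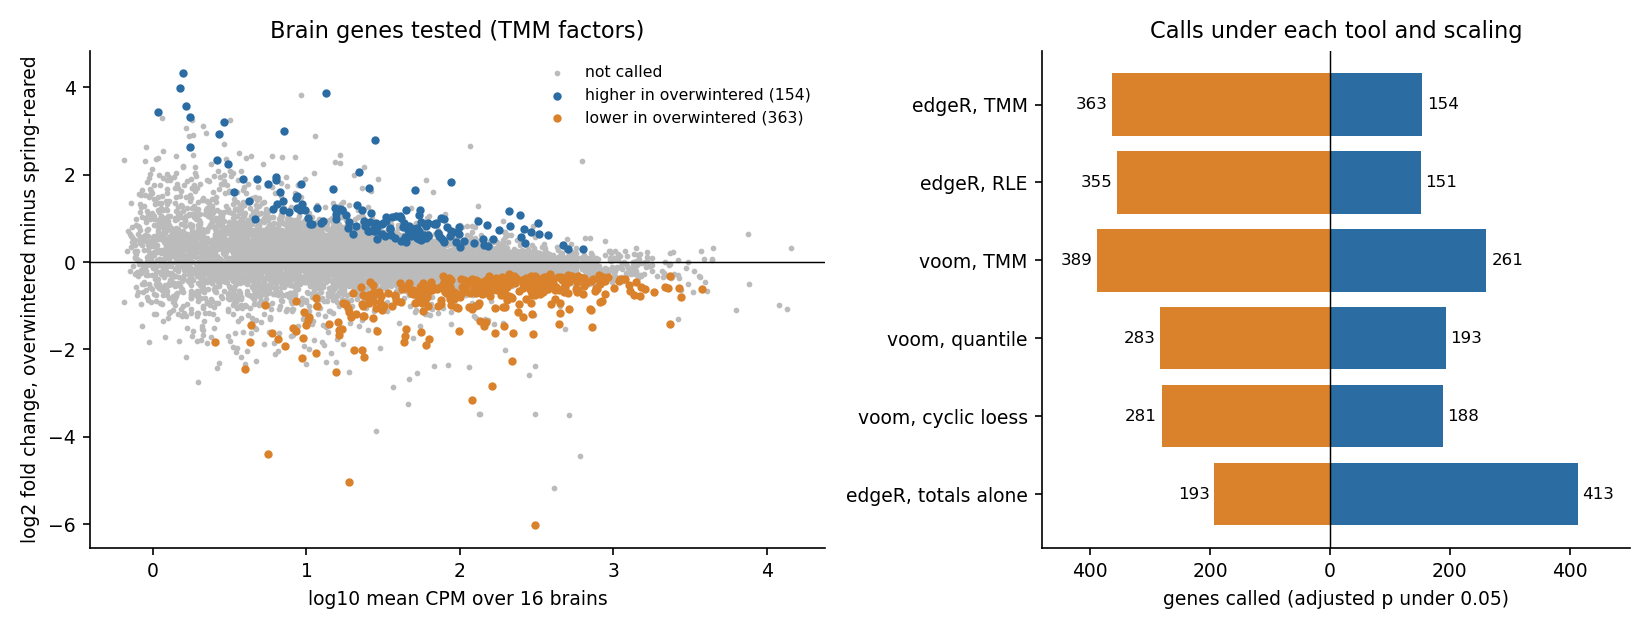
Left, log2 fold change (overwintered minus spring-reared, TMM factors) against log10 mean CPM for the 9570 brain genes tested, with called genes in colour. Right, the number of genes called higher and lower under 6 combinations of tool and scaling: falls outnumber rises in 5 of them, and rises outnumber falls (413 against 193) with library totals alone.

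Part of the calls held under every scaling run. Levels are given in CPM, a gene's counts relative to the TMM-scaled total of its library. With TMM, RLE, library totals, quantile and cyclic loess scaling, 108 of the 154 rises and 177 of the 363 falls were called in the same direction under all 5. TMM, RLE and library totals were run in edgeR, quantile and cyclic loess in limma voom, so calls lost between tools count here too. Limma voom with TMM factors kept 142 of the 154 rises and 338 of the 363 falls. The rises held under all 5 had a median log2 fold change of 0.83 (0.29 to 3.99), and 87 of them averaged under 100 CPM. The falls held under all 5 had a median of -0.80 (-6.03 to -0.41), and 104 of them averaged 100 CPM or more. Of these, 37 rises and 63 falls were at least 2-fold. Leaving out each library in turn kept 59 of the 154 rises and 222 of the 363 falls in all 16 fits. Without spring-reared brains 4 and 7, 106 genes rose and 195 fell, and 77 and 182 of these were among the calls from all libraries. Without overwintered brain 2, 81 rose and 242 fell, without overwintered brain 3, 82 rose and 265 fell, and without overwintered brain 6, 96 rose and 263 fell. Without overwintered brain 1 as well as spring-reared brains 4 and 7, 161 rose and 280 fell.

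Most changes were modest. Among the rises, 25 were under 1.5-fold, 70 between 1.5- and 2-fold, 45 between 2- and 4-fold and 14 larger. Among the falls these numbers were 148, 136, 66 and 13. At least 2-fold changes thus made up 138 of the calls (1.44% of genes tested), 59 higher and 79 lower. The genes that fell took 12.2% ± 0.811 of all gene counts in spring-reared and 8.69% ± 0.426 in overwintered brains, and the genes that rose 0.738% ± 0.0819 and 1.33% ± 0.214 (SD, n = 8 each). These shares describe the called genes and carry no test, since the same libraries chose them.

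Another reading, made over all genes tested whether called or not, counted genes whose ranges did not overlap between the groups. In 77 genes all 8 overwintered brains lay below all 8 spring-reared brains (0.805% of genes tested), and 75 called falls were among them. In 24 genes they lay above them (0.251%), and 18 called rises were among these. With library totals alone 38 lower and 53 higher genes had separate ranges, and 36 lower and 24 higher genes had them under both scalings. On unchanged CPM values, leaving out libraries can only keep or raise these counts, so a rise was fixed in advance. Leaving out any 1 library gave 81 to 134 lower and 26 to 42 higher genes. Leaving out overwintered brain 1 gave 134 and 39, and leaving out spring-reared brains 4 and 7 gave 105 and 47. The higher genes also numbered 38 without overwintered brain 8, and 37, 40, 42 and 41 without spring-reared brains 1, 2, 5 and 6.

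Of the 4 genes given by identifier, SINVBB1_07534 had the lowest p of all brain genes. It stood at 123 to 202 CPM in overwintered brains (median 145) and at 265 to 424 CPM in spring-reared brains (median 361). All 8 overwintered brains lay below all 8 spring-reared brains, and both groups were tight. The means were 152 ± 29.8 and 362 ± 48.8 CPM (SD over 8 brains each), a log2 fold change of -1.25 with SE 0.12 (adjusted p = 3.44e-05, edgeR). In ovary the gene was scarcer and was lower in overwintered gynes too, at 14.1 ± 3.81 against 26.3 ± 5.26 CPM, a log2 fold change of -0.90 with SE 0.17 (adjusted p = 0.00298, edgeR).

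SINVBB1_14850 had the lowest p of the rises averaging at least 5 CPM. It was a scarce transcript, at 8.21 to 18.1 CPM in overwintered brains (median 12.4) and 0.296 to 2.91 CPM in spring-reared brains (median 1.54). The groups did not overlap, with 1403 counts in all overwintered brains together and 177 in all spring-reared brains. The means were 12.6 ± 3.07 and 1.56 ± 0.840 CPM (SD over 8 brains each), a log2 fold change of 3.01 with SE 0.37 (adjusted p = 1.82e-04, edgeR). Its ovary level was 0.859 ± 0.559 CPM after overwintering and 0.148 ± 0.148 CPM after spring rearing, below the filter of the ovary test.

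SINVBB1_05896, the largest fall, ranged from 1.06 to 30.8 CPM in overwintered brains (median 4.99) and from 54.0 to 1059.7 CPM in spring-reared brains (median 644). The groups did not overlap, but spring-reared brains fell into a wide spread: brains 1, 2, 4 and 7 held 914 CPM or more, brains 3, 5 and 8 between 203 and 375, and brain 6 only 54.0. Overwintered brains 1 and 2, at 30.8 and 22.0 CPM, were the highest of their group. The means were 9.44 ± 10.9 and 606 ± 407 CPM (SD over 8 brains each), a log2 fold change of -6.03 with SE 0.86 (adjusted p = 0.00137, edgeR). Ovaries held 73.2 ± 52.1 and 235 ± 132 CPM, a log2 fold change of -1.68 that did not pass (adjusted p = 0.0558, edgeR).

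SINVBB1_08088, the largest rise among genes averaging at least 5 CPM (scarcer genes rose by up to 4.32 on the log2 scale), was the least even of the 4. Overwintered brains held 2.18 to 56.9 CPM (median 23.8), with brains 1 and 2 lowest at 5.37 and 2.18 CPM, and spring-reared brains 0 to 5.44 CPM (median 1.498), with 3 of 8 libraries at 0 counts. The groups overlapped: 6 of 8 overwintered brains lay above all spring-reared brains. The log2 fold change was 3.88 (SE 0.94, n = 8 each, edgeR adjusted p = 0.0244). Across 28 alternatives the adjusted p lay between 0.00323 and 0.0639. It missed the threshold in 4 of them: 0.0521 when overwintered brain 3 was left out, 0.0602 when spring-reared brains 4 and 7 were, and 0.0639 and 0.0524 with limma voom under its TMM and its quantile scaling. In ovary the gene stood at 0.618 ± 0.530 and 0.941 ± 0.709 CPM, below the filter of the ovary test. The calls of the other 3 genes were kept in every alternative run, library totals included.

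**Figure D2:**
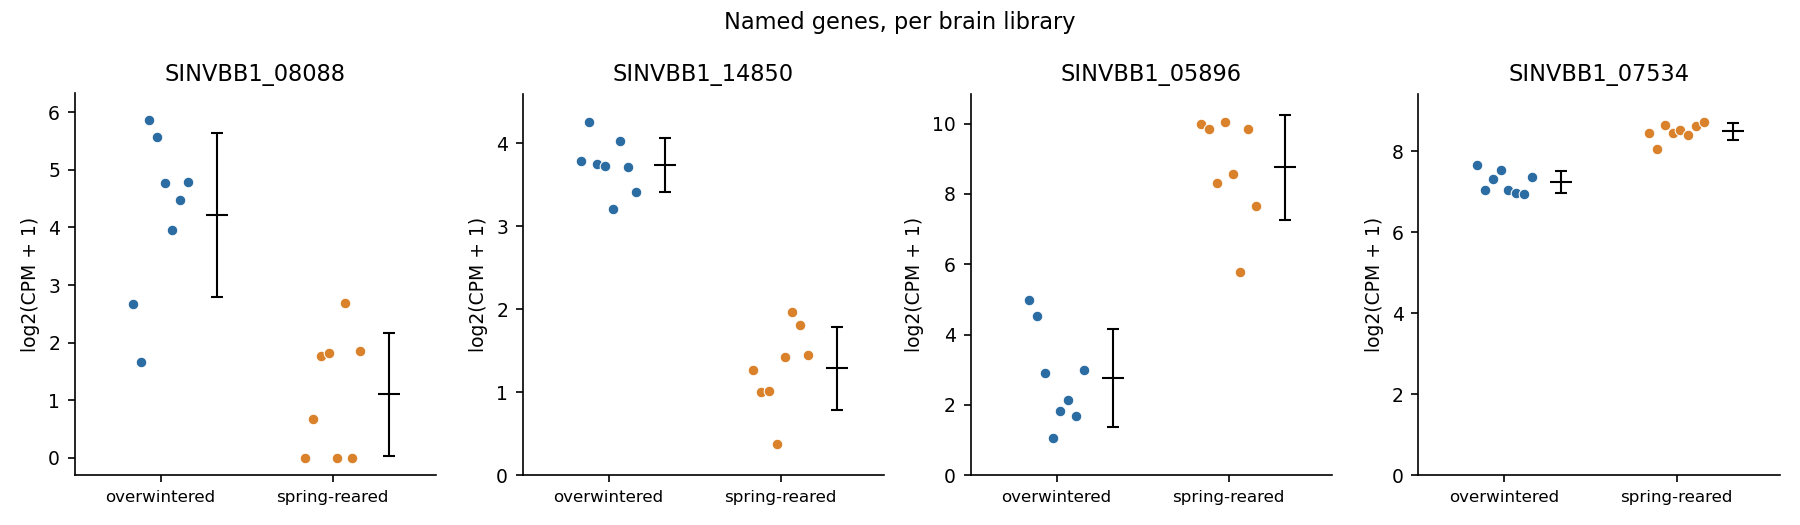
Level of each named gene in log2(CPM + 1) in the 8 overwintered (blue) and 8 spring-reared (orange) brains; points are libraries, and the dash and bars are mean and SD. Groups are separate for SINVBB1_14850, SINVBB1_05896 and SINVBB1_07534 and overlap for SINVBB1_08088, where spring-reared values reach 5.44 CPM and the lowest overwintered value is 2.18 CPM.

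The median fold change by abundance class depended on the scaling. With TMM factors the median log2 fold change was 0.22 over 2295 genes of 1 to 10 CPM, 0.04 over 4934 genes of 10 to 100 CPM, -0.08 over 2095 genes of 100 to 1000 CPM and -0.21 over 119 genes of 1000 CPM or more. With library totals alone the same medians were 0.36, 0.19, 0.06 and -0.07, so the order of the classes stayed and the zero line moved. With quantile normalization they were nearly flat, at -0.02 for 1 to 10 CPM, 0.04 for 10 to 100 CPM and 0.03 in both classes above. With cyclic loess normalization the medians from 1 CPM upwards were 0.20, 0.03, 0.01 and 0.01. Over the 127 genes of under 1 CPM the median was 0.40 with TMM factors and 0.55 with library totals. For the same genes it was 0.18 with cyclic loess and -0.81 with quantile normalization. Of the 2214 genes of 100 CPM or more, 22 rose and 223 fell with TMM factors, against 102 and 118 with library totals, 66 and 118 with quantile and 63 and 126 with cyclic loess normalization; the latter 2 methods equalise the distributions. Among the 119 genes of 1000 CPM or more, 19 fell and 0 rose with TMM factors (edgeR), 14 fell and 6 rose with library totals, 9 fell and 10 rose with quantile and 12 fell and 13 rose with cyclic loess normalization (limma voom).

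The composition of the libraries also differed by class. The shares themselves need no scaling factor, but the classes were drawn from TMM-scaled means of the same brains. The class shares of a library add up to the whole, so a lower share in one class means higher shares in others. The 120 genes of 1000 CPM or more took 24.1% to 28.3% of gene counts in overwintered brains (median 25.2%) and 26.2% to 30.7% in spring-reared brains (median 28.2%). The ranges overlapped, and 1 of 8 overwintered brains, brain 1, lay above the spring-reared median. The means were 25.8% ± 1.46 and 28.4% ± 1.57 (SD, n = 8; exact two-sided permutation p = 0.00497, adjusted p = 0.00995 over 16 measures). Genes of 10 to 100 CPM, 4937 in number, took 21.6% ± 1.39 in overwintered and 19.5% ± 0.739 in spring-reared brains (n = 8 each; exact permutation adjusted p = 0.00533), with 7 of 8 overwintered brains above the spring-reared median. Genes of 1 to 10 CPM took 1.15% ± 0.126 and 0.925% ± 0.0435 (exact permutation adjusted p = 0.00149), and genes of under 1 CPM 0.0866% ± 0.0145 and 0.0612% ± 0.00573 (n = 8 each; exact permutation adjusted p = 0.00124). These 2 scarce classes depended on how they were drawn: with classes from the median in place of the mean, their differences were 0.030 percentage points (exact permutation adjusted p = 0.847) and -0.342 points (adjusted p = 0.571). For the 2098 genes of 100 to 1000 CPM the shares were 51.3% ± 0.525 and 51.1% ± 1.12, and no difference was detectable (n = 8 each; exact permutation adjusted p = 0.774). Without spring-reared brains 4 and 7 the difference for genes of 1000 CPM or more was -2.12 percentage points (exact permutation adjusted p = 0.0373, n = 8 and 6).

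**Figure D3:**
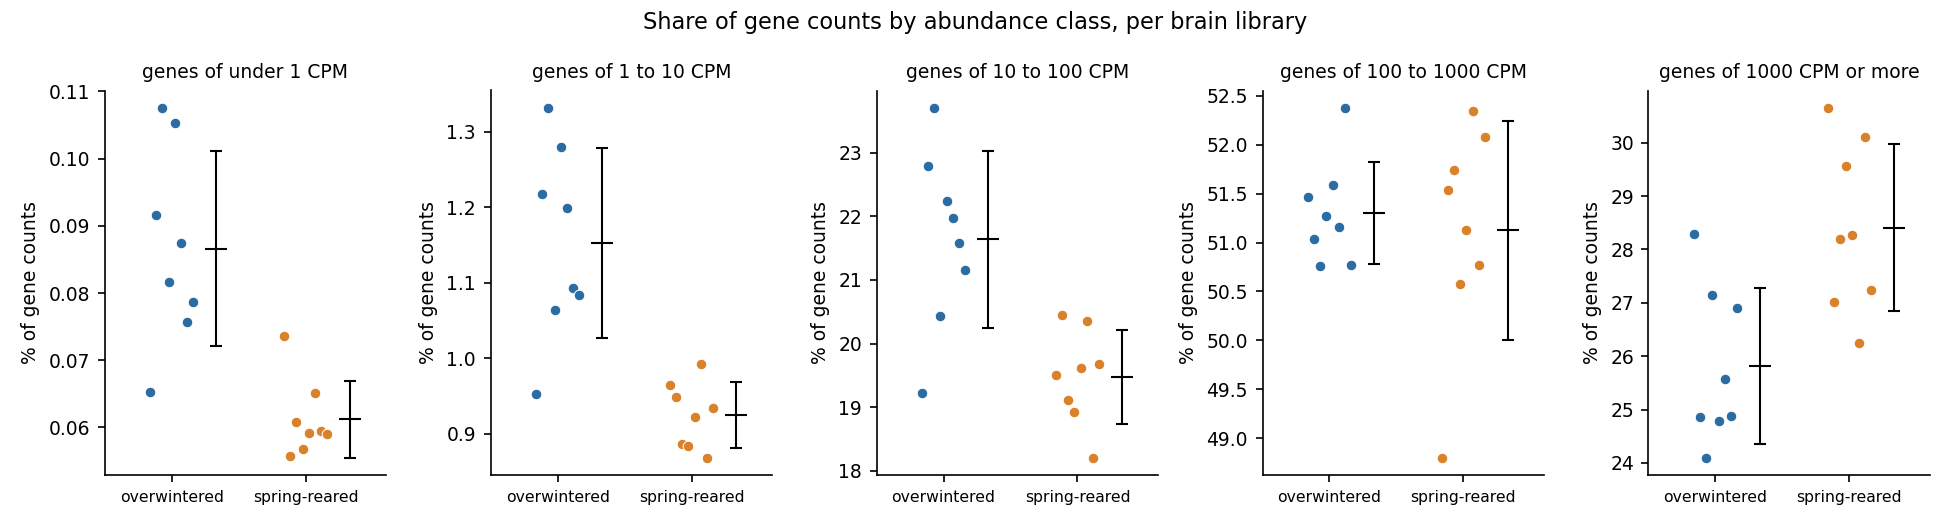
Percentage of gene counts taken by each class of mean abundance in the 8 overwintered (blue) and 8 spring-reared (orange) brains; points are libraries, the dash and bars are mean and SD, and the axes do not start at 0. Overwintered brains are higher in the classes from 10 to 100 CPM downwards and lower at 1000 CPM or more (25.8% against 28.4%), and overwintered brain 1 lies with the spring-reared brains in most classes.

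More genes were detected in overwintered brains, and the excess was not limited to genes seen by a few reads. Every library was thinned to the depth of the shallowest, overwintered brain 1. At least 1 count was then found for 10635 to 11231 genes in overwintered brains (median 10925.5) and for 9780 to 10458 genes in spring-reared brains (median 10200.0), with no overlap. At least 10 counts were found for 9301 to 9641 genes (median 9449.5) and 8930 to 9181 genes (median 9153), again with no overlap. Spring-reared brains 4 and 7, at 8931 and 8930, lay below the other 6 of their group, which held 9121 to 9181. At least 100 counts were found for 7092 ± 152 and 6784 ± 103 genes (SD, n = 8; exact two-sided permutation p = 6.22e-04, adjusted p = 0.00166), where only overwintered brain 1, at 6810, fell within the spring-reared range. The mean differences at 1 and 10 counts were 794 and 379 genes (n = 8 each; exact permutation p = 1.55e-04, the smallest that 8 against 8 allows, adjusted p = 8.29e-04). Without spring-reared brains 4 and 7 the 3 differences were 687, 322 and 260.2 genes (n = 8 and 6; exact permutation adjusted p at most 0.00799).

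**Figure D4:**
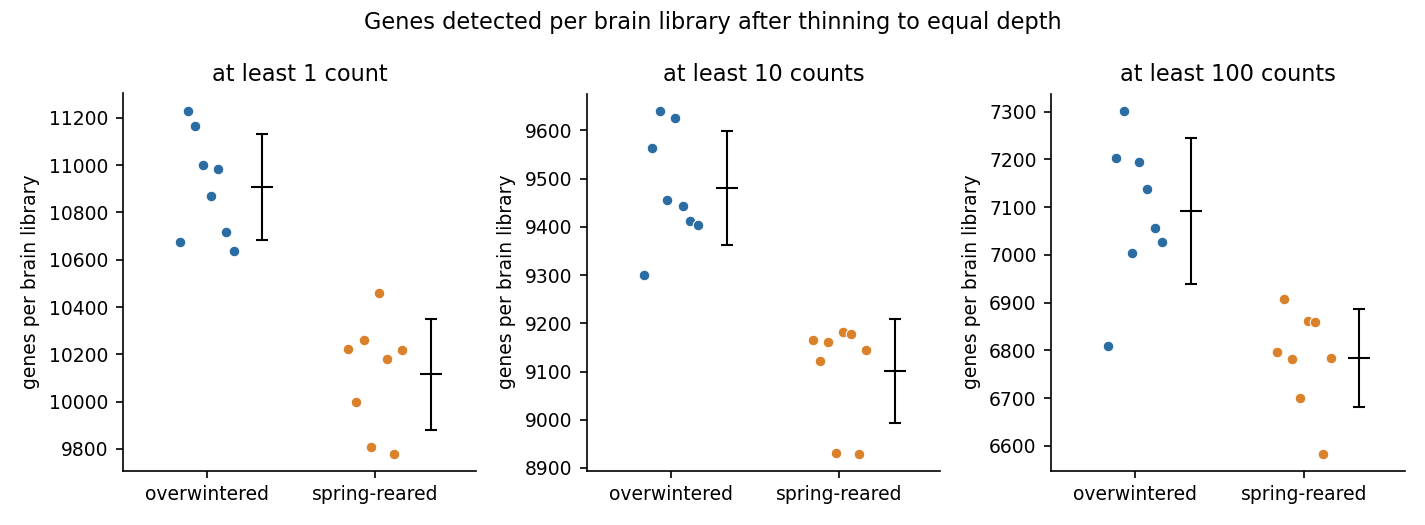
Genes with at least 1, 10 and 100 counts per brain library after thinning all libraries to the depth of the shallowest; points are libraries (blue overwintered, orange spring-reared), the dash and bars are mean and SD, and the axes do not start at 0. The groups are separate at 1 and 10 counts; at 100 counts overwintered brain 1, at 6810 genes, lies among the spring-reared brains.

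Each library was then placed on genes it had not helped to choose. Genes were called from the other 15 libraries, and the left-out library was given a position for each gene, from -1 at the mean of the spring-reared to 1 at the mean of the overwintered libraries among those 15. The median position over the called genes, 323 to 604 in number, lay on the side of the library's own group for 15 of 16 brains. Spring-reared brains ranged from -1.27 to -0.289 (median -0.875), with brain 4 outermost and brains 2, 5 and 6 nearest the middle at -0.414, -0.289 and -0.313. Overwintered brains ranged from -0.0327 to 1.28 (median 0.888), with brains 2, 3, 6 and 7 beyond 1. Overwintered brain 1 was the exception, at -0.0327, midway between the groups, with 48.7% of 604 genes on its own side. With the 100 genes of lowest p in place of the called genes, all 16 libraries lay on their own side, with overwintered brain 1 still lowest of its group at 0.133. Over all 13841 genes with any count the groups were less distinct. There, 11 of 16 libraries had a higher mean Spearman correlation with their own group than with the other. Spring-reared brains 1, 2, 5, 6 and 8 correlated better with the overwintered brains (brain 5 at 0.964 against 0.959). Overwintered brain 1 was also the shallowest library, at 9612985 gene counts, and had the most unmapped reads, at 26.8%, against 6.37% to 21.6% in the other brains. It had the smallest share of reads outside genes of all 16 brains too, at 10.05%. The part of these measures in its position was not tested. Rises and falls did not always move together in a library: overwintered brain 4 stood at 0.135 on rises and 0.804 on falls.

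**Figure D5:**
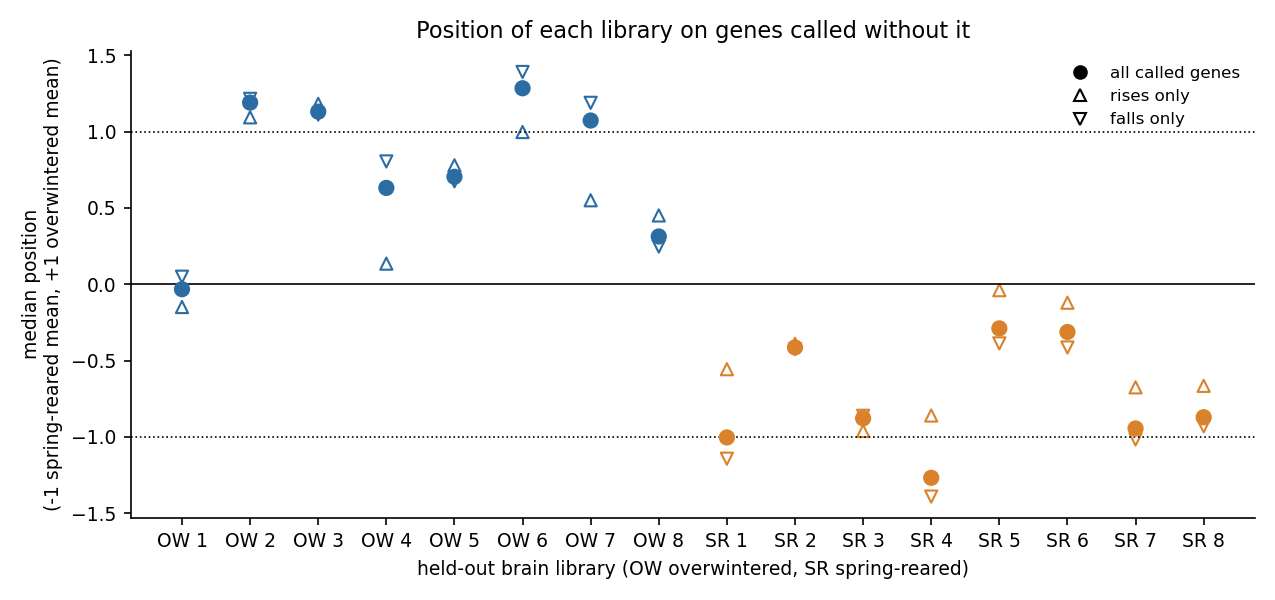
Median position of each brain library on genes called without it, where -1 is the mean of the spring-reared and 1 the mean of the overwintered libraries used for the call; filled points are all called genes, open triangles rises and falls apart. The 15 libraries other than overwintered brain 1 (-0.0327) lie on their own group's side.

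Spread among brains was wider in the spring-reared group by several measures, as a description. The common biological coefficient of variation estimated by edgeR in each group alone was 0.378 for overwintered brains and 0.540 for spring-reared brains, and 0.499 for the 6 spring-reared brains other than 4 and 7. The SD of log2 CPM was larger among spring-reared brains for 66.3% of the 9570 genes, and for 57.2% without brains 4 and 7. The median distance of a library's genes from the mean of the rest of its group was 0.195 to 0.332 log2 units in overwintered brains (median 0.237), where brain 1 was highest, and 0.240 to 0.348 in spring-reared brains (median 0.290), where brains 4 and 7 were highest. Without brains 4 and 7 the spring-reared distances were 0.249 to 0.306 (median 0.265), within the overwintered range. That range reached 0.332 only through overwintered brain 1, and the next highest, overwintered brain 8, stood at 0.277. Spring-reared brains 1 and 6, at 0.297 and 0.306, lay above brain 8, and spring-reared brains 2, 3, 5 and 8 below it. The ranges of all libraries overlapped too, and the difference in spread was not tested.

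Genes called in brain were read in the ovaries of the same gynes, which are separate libraries but not separate animals. Of the 347 brain falls that could be tested in ovary, 85 fell and 12 rose there (24.5% and 3.46%; of all genes tested in ovary 5.28% fell and 5.3% rose), and their median ovary log2 fold change was -0.21. Of the 135 brain rises tested in ovary, 15 rose and 1 fell, and their median was 0.23. Over the 8613 genes tested in both organs the median was 0.02. Of the 195 brain falls called without spring-reared brains 4 and 7, 52 were lower in ovary. The brain falls were common transcripts in both organs, with a median level of 156 CPM in brain and 70.3 CPM in ovary, against 34.2 in each over all genes tested; the rises had medians of 35.2 and 17.5 CPM, and 20 of the 154 rises averaged under 1 CPM in ovary, a share near that of all genes tested (1060 of 9570, 11.1%).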

How the data were processed

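The authors deposited whole-number counts per gene model for each library; the submitters' processing notes list edgeR, STAR 2.7.3a and Trim Galore 0.6.5. Annotation and genome build: not given in the sources used here. In each file 4 lines name no gene and stayed out of library sizes and tests; they hold unmapped, multimapping, outside-gene and ambiguous reads, on average 17.3%, 8.59%, 12.8% and 1.13% of reads in overwintered and 17.2%, 9.49%, 10.8% and 1.10% in spring-reared brains. Each file holds 1 count column, and Smart-seq2 does not mark strand, so overlapping and antisense genes and near-identical copies cannot be separated. The authors' deposited CPM table lists 7655 brain genes, each at 1.13 CPM or more in every brain; it was used only as an alternative filter, and it leaves out 23 of the 154 rises and 11 of the 363 falls, with 3 of the 4 named genes.

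Counts of the 16 brains were filtered by filterByExpr, scaled by TMM and tested by the robust quasi-likelihood F-test of edgeR 4.0.16 (R 4.3.3) and Benjamini-Hochberg adjustment. The 16 ovaries were fitted apart in the same way. CPM values use TMM-adjusted totals, and log2 positions and distances a pseudocount of 2. For library measures, exact two-sided permutation tests were run in Python 3.11.15 and adjusted over 16 measures. Abundance classes use the mean over all 16 brains. In each direction the named genes are the largest change and the lowest p among the other calls, with a mean of at least 5 CPM. Members, lists and rules were chosen with earlier results of these data known. Alternatives included DESeq2 1.42.0 and limma 3.58.1. The edgeR and DESeq2 fits were also run on simulated counts with known changes. A limit on false calls was set there for edgeR only, and the outcome is not given here. No pair of libraries in a group agreed within sampling noise (over 56 pairs, chi-square divided by its degrees of freedom was at least 49.2).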

Additional observations from a re-analysis of the deposited data

How the results depend on the processing

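Counts of calls depended on tool, scaling and libraries. In all, DESeq2 called 863 genes (327 rises) and limma voom 261 rises; library totals alone gave 413 rises and 193 falls, an adjusted p of 0.01 gave 151 calls (22 rises, 129 falls), and a log2 fold change of at least 1 gave 138 (59 and 79). Without spring-reared brains 4 and 7, 301 genes were called (195 falls). The replicate block gave 308 calls (85 and 223), but the numbers do not pair the brains: same-numbered brains correlated at -0.240 to 0.0644 over 8 pairs, 0 of them above 0.1, and 0 of 16 libraries correlated best with their own number. The block changed the call of none of the 4 named genes. Leaving out 1 library gave 323 to 604 calls, 81 to 202 rises and 242 to 402 falls. Among genes of 100 CPM or more, rises were 12 to 34 and falls 161 to 257 when 1 library was left out; rises were 47 with DESeq2, and rises and falls were 66 and 118 with quantile normalization, 63 and 126 with cyclic loess, 102 and 118 with library totals and 12 and 128 without spring-reared brains 4 and 7. Genes with separate ranges numbered 26 to 42 higher and 81 to 134 lower when 1 library was left out, and 47 higher without spring-reared brains 4 and 7. Leaving libraries out cannot lower these numbers on unchanged CPM values. With library totals 53 higher and 38 lower genes had separate ranges, and 12 higher among the genes of the authors' table.

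Detection at equal depth and the shares of genes of 10 to 100 and of 1000 CPM or more kept their direction and their side of the threshold in every alternative run. The shares of genes of under 1 and of 1 to 10 CPM became -0.342 and 0.030 percentage points with classes from the median. Without spring-reared brains 4 and 7 the differences in multimapping reads and in reads outside genes were -0.725 and 1.88 points and no longer passed; leaving out 1 library they ranged from -1.03 to -0.686 and from 1.37 to 2.36 and lost the call in 9 and 3 of 16 fits. The share of the 10 most abundant genes differed by -1.54 to -0.752 points and total counts by -2609839 to -1521036 over such fits, and passed without spring-reared brain 6 and without overwintered brain 3, respectively. The share of ovary genes differed by 0.000956 to 0.00145 points, with the call lost in 5 of 16 such fits, and by 0.00306 with a limit of 20-fold, where it was lost too. Read in ovary, 29 brain rises rose and 5 fell with limma voom in both organs; without spring-reared brains 4 and 7, 52 brain falls fell and 4 rose there, and 0 brain rises fell. The cause of these differences was not tested. The sum of strand-specific columns was not run, as each file holds 1 count column.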
